A study of Homo sapiens with 6 samples.

Results

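The genes described here encode the initiation and elongation factors of cytosolic translation. They are the protein-coding genes of the count files whose symbol begins with EIF1 to EIF6, EEF1 or EEF2, leaving out the EIF2AK, EIF4EBP and EIF4ENIF names. The rule found 62 genes among the 78932 identifiers counted, and 58 of the 62 passed the filter on low counts and were tested. Membership rests on names, not on measured values. The libraries came from KARPAS-45, an established cell line from a human T-cell acute lymphoblastic leukaemia with a KMT2A-FOXO4 fusion. The 3 control libraries are labelled WT and untreated. The 3 MEF2C-OE libraries came from cells transduced with a lentiviral vector that drives MEF2C, a MADS-box transcription factor gene, from the EF1A promoter and is linked to mCherry. The mCherry-positive cells were sorted 120 h after transduction. The sources used here do not say whether control cells received a vector or a sort, and the 2 groups share the line and its culture. All 6 are labelled technical replicates, so the spread behind every p-value is that between libraries of this kind and may be technical. The EF1A promoter is the promoter of EEF1A1, itself a factor gene described here, and any reads that vector transcripts gave to EEF1A1 cannot be told apart from its own.

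Translation begins when EIF2 brings the initiator tRNA to the small ribosomal subunit, where EIF1, EIF1A, EIF3 and EIF5 help to find the start codon. The EIF4 factors bring the mRNA: EIF4E binds the cap, EIF4G is the scaffold and EIF4A the helicase, and EIF5B then joins the large subunit. During elongation EEF1A delivers each aminoacyl-tRNA, the EEF1B complex recharges EEF1A with GTP, and EEF2 moves the ribosome along. Many elongation factor and ribosomal protein mRNAs begin with a terminal oligopyrimidine (TOP) tract, a cytosine followed directly by pyrimidines, which couples their translation and stability to growth signals through mTOR and the cap-binding repressor LARP1.

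The bases at the annotated start sites are shown first, because the changes of factor genes with and without such a tract are set side by side further on. The windows below, from RefSeq on GRCh38.p14, run 5′ to 3′ over 30 bases, 15 before the start site and 15 from it. Capitals mark an unbroken run of pyrimidines that opens with C at the first transcribed base and holds at least 4 more, on the gene's own strand. For 12 factor genes no window was at hand. Of the 50 with a window, 13 had such a run at an annotated start and 37 did not. Counted the same way by gene, 959 other protein-coding genes had such a run at an annotated start and 14336 had a window but no run. Counted by window and not by gene, 4.07% of all 35116 RefSeq windows had it. The windows printed were chosen as examples after the changes were known, and their mix is not the mix of all factor genes. The first 8 are examples with a run and a lower level in the MEF2C-OE libraries, the next 4 have no run and a higher level, and EIF4A1 and EIF3I have no run and a lower level. In all, 14 factor genes without a run also fell, and 2 with a run, EIF2D and EIF2S3B, did not pass the test.
EEF1A1 (chr6:73521018-73521047, minus strand): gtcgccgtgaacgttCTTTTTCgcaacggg
EEF1B2 (chr2:206159880-206159909, plus strand): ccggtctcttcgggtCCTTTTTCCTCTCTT
EEF2 (chr19:3985449-3985478, minus strand): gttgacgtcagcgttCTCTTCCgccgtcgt
EIF4A2 (chr3:186783562-186783591, plus strand): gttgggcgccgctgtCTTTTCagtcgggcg
EIF4B (chr12:53006441-53006470, plus strand): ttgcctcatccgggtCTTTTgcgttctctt
EIF3F (chr11:7987322-7987351, plus strand): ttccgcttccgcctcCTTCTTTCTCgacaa
EIF3K (chr19:38619173-38619202, plus strand): ttccgtttccaccacCTCTTCCTgttcccg
EIF2A (chr3:150546772-150546801, plus strand): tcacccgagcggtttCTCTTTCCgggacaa
EEF1E1 (chr6:8102534-8102563, minus strand): tgttctgcaggtctcgcgtctgccaggagc
EIF3J (chr15:44537132-44537161, plus strand): cacctccgccgtgctaactcctcgctagct
EIF5A2 (chr3:170908623-170908652, minus strand): cccgccccgtctcttggaactgccgcggcc
EIF4G2 (chr11:10807982-10808011, minus strand): gaggttgtcggaagcacttccctaacttgc
EIF4A1 (chr17:7572810-7572839, plus strand): aggcgggcactccgccctagtttctaagga
EIF3I (chr1:32222392-32222421, plus strand): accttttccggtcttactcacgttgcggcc
The runs of the 13 genes spanned 5 bases in EIF4B to 16 in EEF1B2, whose run goes past the printed window. EEF1B2 also has a start without a run, and EIF4G2 has another start, also without a run. A match is a description of the annotated start, and the start used in these cells was not measured.

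Between 48218497 and 56890745 reads were assigned to genes per library. MEF2C had 10, 1 and 0 reads in the control libraries and 40, 29 and 41 in the MEF2C-OE libraries, so its order followed the labels, at a level of 0.68 ± 0.073 CPM (counts per 1000000 reads, with libraries scaled by TMM; SD, n = 3) in the MEF2C-OE group. This is a low level of MEF2C, and 24.4% of all tested genes had every MEF2C-OE library above the controls. The MEF2C reads alone do not show strong overexpression. The T lineage markers were present in both groups, with a summed level of 5381 to 5450 CPM in the control and 4756 to 4899 CPM in the MEF2C-OE libraries. Of their 13 tested markers 8 fell and 3 rose, where 26.5% and 26.7% of tested protein-coding genes outside the factor list did. The summed B lineage markers stayed between 10.9 and 13.6 CPM, most of it CD79A, with no MS4A1 read, and the myeloid and erythroid lists summed to at most 1.02 and 0.236 CPM. The 3 stromal markers summed to 5.34 to 6.16 CPM in control and 1.33 to 1.87 CPM in MEF2C-OE libraries, with PDGFRB at 4.14 ± 0.576 and 0.812 ± 0.213 CPM. All libraries came from 1 cell line, and bulk RNA does not show whether such shifts lie in all of its cells or in some. The part of these shifts in the results below was not tested.

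More factor genes were lower than higher in the MEF2C-OE libraries. By edgeR's quasi-likelihood test with Benjamini-Hochberg adjustment over all 19086 tested genes, 31 of the 58 fell, 8 rose and 19 did not pass an adjusted p of 0.05. Over all tested genes 20.2% fell and 20.8% rose, against 53.4% and 13.8% of the factor genes. The factor genes are protein-coding by rule, and of the 12183 other tested protein-coding genes 26.5% fell and 26.7% rose. The median log2 fold change of the factor genes was -0.13, with -0.01 over all tested genes. The extremes were -0.83 for EIF4A1 and 0.66 for EEF1E1. In 30 factor genes every MEF2C-OE library lay below every control library, and in 9 every one lay above. The share over all tested genes was 24.4% below and 24.4% above. Of the 12183 other protein-coding genes 3656 lay below and 3614 above. Most changes of the factor genes were small. Tested against a change of 1.1-fold with edgeR's glmTreat, 21 factor genes (36.2%) were lower and 5 (8.62%) higher. By that test the shares of all tested genes were 11.9% and 11.7%, and those of other protein-coding genes 15.2% and 14.4%. As a part of all assigned reads, the 62 genes together took 2.69% to 2.78% in control and 2.26% to 2.30% in MEF2C-OE libraries, and the groups did not overlap.

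**Figure D1:**
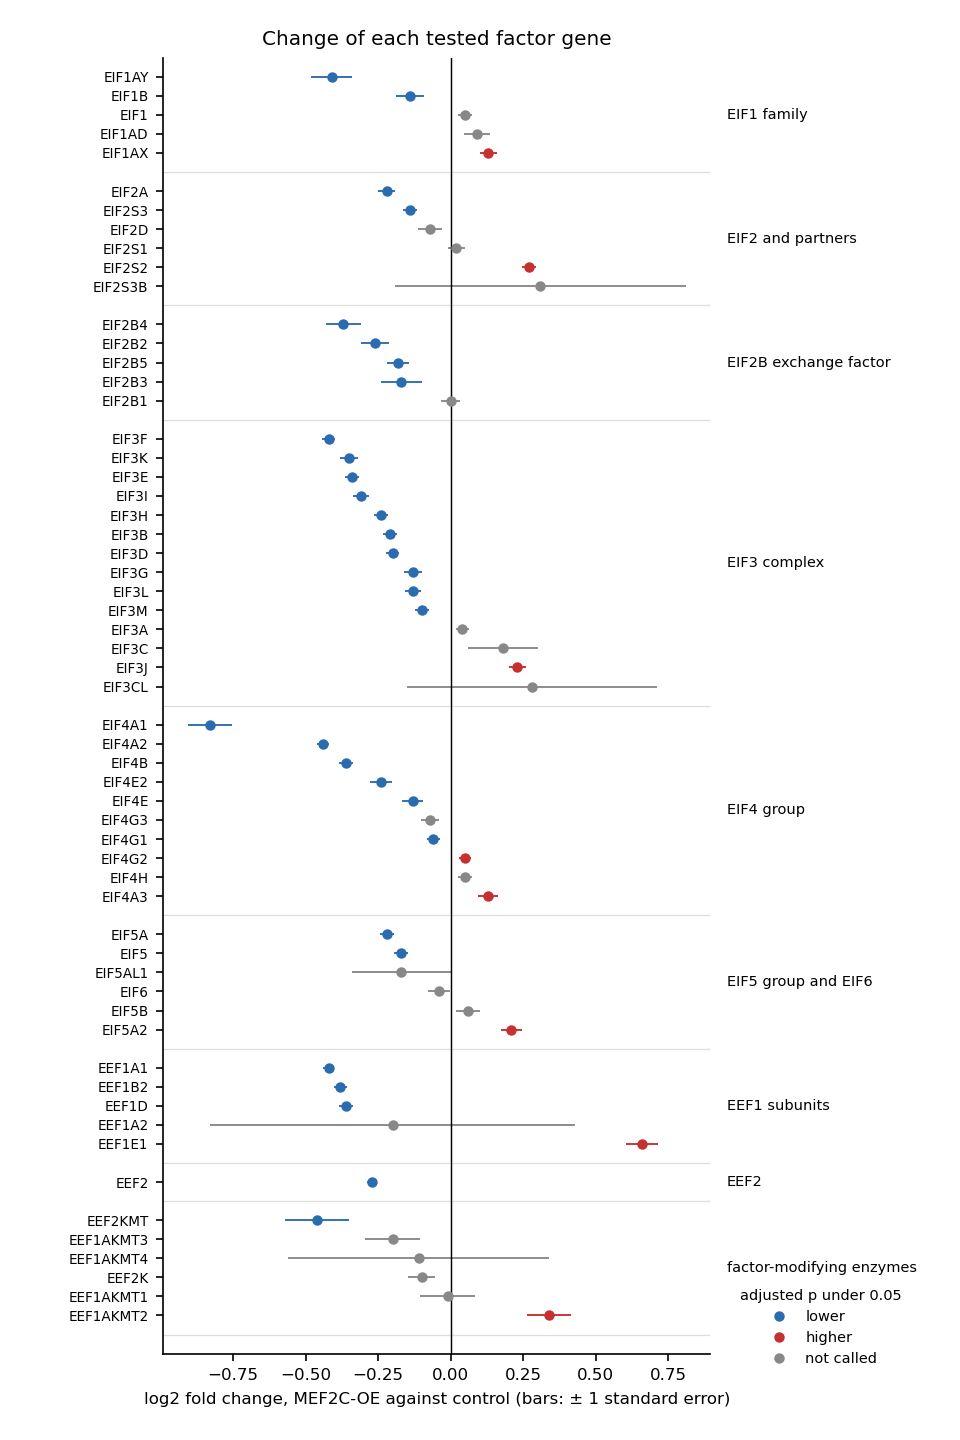
Log2 fold change (MEF2C-OE against control, 3 libraries each) of the 58 tested factor genes, grouped by factor, with ± 1 standard error and coloured by the call at an adjusted p of 0.05. Of these genes 31 lie to the left as lower and 8 to the right as higher, with EIF4A1 at -0.83 and EEF1E1 at 0.66 as the extremes.

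The largest shift in absolute level was in elongation. EEF1A1 (chr6:73515750-73523797, minus strand), which delivers aminoacyl-tRNA to the ribosome, had 13359, 12491 and 12988 CPM in the control libraries and 9846, 9748 and 9498 CPM in the MEF2C-OE libraries. Every MEF2C-OE library lay well below the lowest control. The means were 12946 ± 436 and 9697 ± 179.6 CPM (SD, n = 3 each), and EEF1A1 fell by 25.1% (log2 fold change -0.42, SE 0.019, adjusted p = 1.1e-20). EEF1A1 held the most reads of any gene summed over the 6 libraries, 1.24% to 1.33% of all assigned reads in control and 0.954% to 0.990% in MEF2C-OE libraries. Among the reads of the 62 factor genes its share moved from 46.1% to 47.7% down to 42.1% to 43.0%. EEF1A2, the isoform known from muscle and neurons, had 1 to 21 reads per library, with overlapping groups (log2 fold change -0.20, SE 0.63, adjusted p = 0.84).

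Of the other tested EEF1 genes, the 2 subunits that recharge EEF1A fell and EEF1E1 rose. EEF1B2 (chr2:206159585-206162928, plus strand), the nucleotide exchange subunit beta, had 458, 467 and 459 CPM in control and 346, 359 and 360.3 CPM in MEF2C-OE libraries. The groups were apart, and EEF1B2 fell by 0.38 on the log2 scale (SE 0.022, adjusted p = 7.7e-18). EEF1D (chr8:143579697-143599541, minus strand), the exchange subunit delta, had 507, 532 and 535 CPM against 401, 423 and 401 CPM, and fell by 0.36 (SE 0.024, adjusted p = 2.1e-16). EEF1E1, also known as AIMP3, differs in role: it is an auxiliary protein of the multi-tRNA synthetase complex. EEF1E1 (chr6:8073360-8102578, minus strand) had 22.9, 22.0 and 20.5 CPM in control and 34.7, 34.2 and 34.9 CPM in MEF2C-OE libraries. It rose by 0.66 on the log2 scale (58.4%, SE 0.056, adjusted p = 2.8e-13), the largest rise among the factor genes. In GENCODE 29, 18.7% of its exonic bases lie in the same-strand EEF1E1-BLOC1S5, which had no read, so its counts may be partial. For EEF1G, the gamma subunit, the files held 2 reads in control replicate 2 and none elsewhere, so it was not tested. In GENCODE 29, 99.9% of its exonic bases lie inside a same-strand readthrough gene, AP002990.1, and the counting rule for such reads was not analysed here.

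EEF2 (chr19:3976056-3985469, minus strand), the translocase, had 3657, 3684 and 3630 CPM in control and 3047, 3080 and 2998 CPM in MEF2C-OE libraries. The highest MEF2C-OE library was below the lowest control. EEF2 fell by 16.8% (log2 fold change -0.27, SE 0.018, adjusted p = 7.6e-16). The SD was 26.9 CPM in control and 41.1 CPM in MEF2C-OE libraries. It ranked the fourth of all genes by reads. EEF2K, the kinase that inhibits EEF2, had 43.5 ± 2.92 and 40.5 ± 0.971 CPM and did not pass (log2 fold change -0.10, adjusted p = 0.085), though it did without control replicate 3 (-0.14, adjusted p = 0.034).

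**Figure D2:**
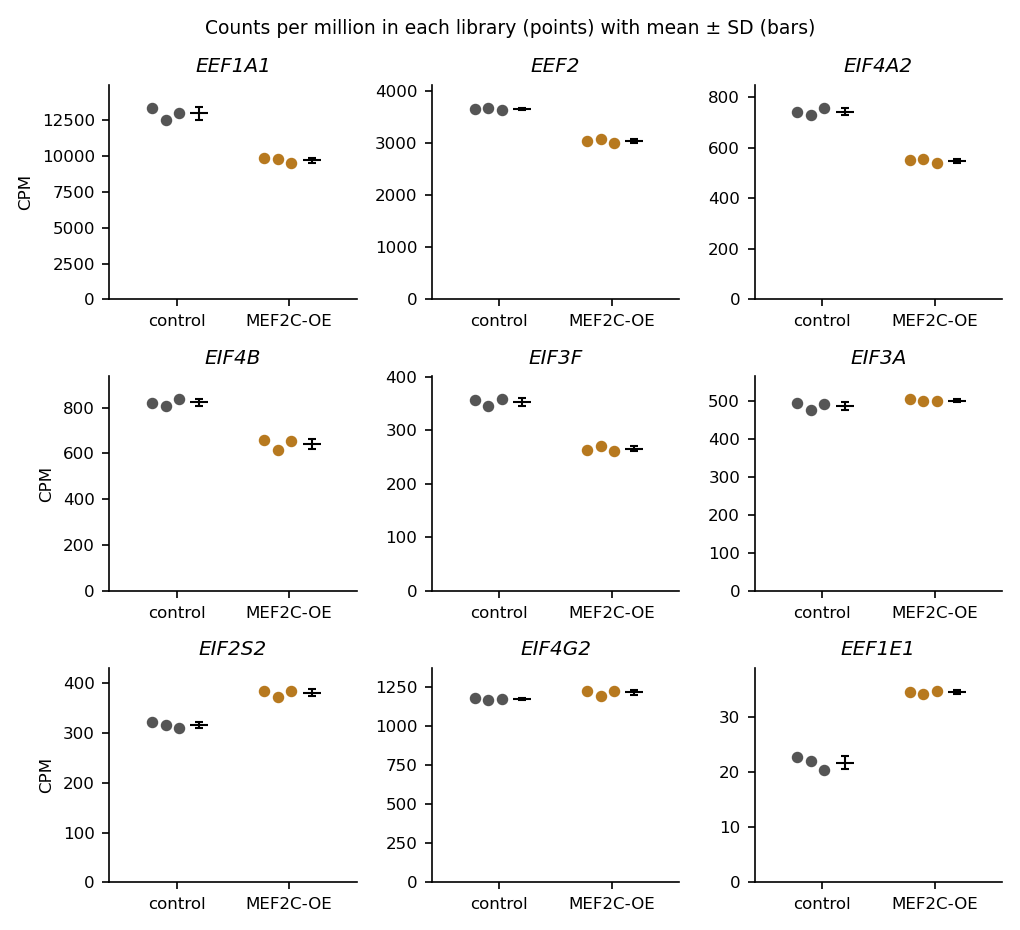
CPM in each control (grey) and MEF2C-OE (gold) library for 9 factor genes, with mean ± SD beside the points and every axis starting at 0. EEF1A1, EEF2, EIF4A2, EIF4B and EIF3F have all MEF2C-OE points below the controls, EIF2S2 and EEF1E1 have them above, and EIF3A and EIF4G2 moved by 0.04 and 0.05 on the log2 scale.

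Of the 12 genes of the EIF4 group, which brings mRNA to the small subunit, 10 were tested, 6 fell and 2 rose, with a median log2 fold change of -0.10. EIF4A2 (chr3:186783205-186789900, plus strand), a DEAD-box helicase, had 739, 728 and 758 CPM in control and 552, 553 and 540.2 CPM in MEF2C-OE libraries. It fell by 26.0%, with the groups far apart (log2 fold change -0.44, SE 0.021, adjusted p = 1.7e-20). EIF4B (chr12:53006158-53042209, plus strand), which stimulates the helicase, had 819.9, 808 and 837 CPM against 657, 616 and 652 CPM. It fell by 0.36 (SE 0.023, adjusted p = 5.7e-17). EIF4H, which also stimulates the helicase, had 497 ± 11.0 and 514 ± 11.9 CPM and did not pass (0.05, adjusted p = 0.085). It passed without MEF2C-OE replicate 1 (0.07, adjusted p = 0.035).

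EIF4A1 (chr17:7572706-7579005, plus strand), the paralogue of EIF4A2, had only 1026, 994 and 1038 reads in control and 632, 495 and 610 in MEF2C-OE libraries. It fell by 43.8%, the largest fall among the factor genes (log2 fold change -0.83, SE 0.075, adjusted p = 2.1e-12). In GENCODE 29, 41.1% of its exonic bases lie in AC016876.2 and 29.8% in SENP3-EIF4A1, both on the same strand, so its counts may hold only part of its reads and are uncertain. AC016876.2 itself had 25 to 31 reads in control and 13 to 29 in MEF2C-OE libraries. EIF4A3, the helicase of the exon junction complex and not of the cap complex, had 85.4 ± 2.21 and 93.7 ± 4.36 CPM and rose by 0.13 (adjusted p = 0.0015).

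The scaffolds changed little. EIF4G1 had 436, 428 and 434 CPM in control and 419.7, 409.5 and 413 CPM in MEF2C-OE libraries, and fell by 0.06 (adjusted p = 0.015). Its call was lost without control replicate 3 (-0.06, adjusted p = 0.06) and without MEF2C-OE replicate 3 (-0.06, adjusted p = 0.055). EIF4G2, also called DAP5, lacks the EIF4E-binding part of the scaffold. It had 1171 ± 7.33 and 1213 ± 17.4 CPM and rose by 0.05 (adjusted p = 0.035). That call was lost when control replicate 2 or 3 was left out (0.05 each, adjusted p = 0.097 and 0.12), and when MEF2C-OE replicate 1 or 3 was (0.05 and 0.04, adjusted p = 0.11 and 0.13). EIF4G3 had 127 ± 1.45 and 121 ± 6.02 CPM (-0.07, adjusted p = 0.085), and passed without MEF2C-OE replicate 3 (-0.09, adjusted p = 0.028).

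Of the cap-binding proteins, EIF4E had 94.6, 88.0 and 91.0 CPM in control and 82.9, 79.6 and 88.3 CPM in MEF2C-OE libraries. Its groups overlapped, and it fell by 0.13 (SE 0.036, adjusted p = 0.0038). EIF4E2, a cap-binding repressor also called 4EHP, had 71.2 ± 3.11 and 60.2 ± 1.01 CPM and fell by 0.24 (adjusted p = 8.8e-07). EIF4E3 and EIF4E1B had at most 4 reads in any library and were not tested.

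EIF3, the scaffold on the small subunit that holds many initiation factors together, was lower in most of its subunits. Of its 14 genes, all tested, 10 fell, EIF3J rose and 3 did not pass, with a median of -0.16. These shares were 71.4% lower and 7.14% higher, with 26.5% and 26.7% of other protein-coding genes. EIF3F had 357, 345 and 358 CPM in control and 263, 269.8 and 261 CPM in MEF2C-OE libraries. Its groups were far apart, and it fell by 25.1% (log2 fold change -0.42, SE 0.023, adjusted p = 1.4e-18). EIF3K fell by 0.35 (110.2 ± 1.33 to 86.3 ± 2.02 CPM, adjusted p = 1.2e-12). EIF3E fell by 0.34 (352 ± 5.99 to 278 ± 4.2 CPM, adjusted p = 6.0e-16). EIF3I fell by 0.31 (152 ± 1.82 to 123 ± 3.46 CPM, adjusted p = 2.7e-12). The other 6 that fell, EIF3B, EIF3D, EIF3G, EIF3H, EIF3L and EIF3M, had log2 fold changes between -0.24 for EIF3H and -0.10 for EIF3M. EIF3L shares 41.1% of its exonic bases with the same-strand AL022311.1 in GENCODE 29, so its count is uncertain.

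Within EIF3 the fall was spread over both structural layers. Of the 8 subunits of the octameric core (A, C, E, F, H, K, L and M), 6 fell, none rose, and the median was -0.18. Of the 5 other subunits (B, D, G, I and J), 4 fell and 1 rose, with a median of -0.20. With an offset for GC content and length the layers were less alike. In that fit 7 of the 8 core subunits fell and none rose (median -0.27), and of the 5 others 3 fell and 1 rose (median -0.12). Of other protein-coding genes 26.7% fell and 21.7% rose in that fit, and 26.5% and 26.7% without the offset. EIF3A, the largest core subunit, had 494, 475 and 492 CPM in control and 505, 499 and 500.2 CPM in MEF2C-OE libraries. Its MEF2C-OE libraries lay above the controls by a narrow margin, and the test was not passed (0.04, SE 0.022, adjusted p = 0.12). EIF3J, a loosely attached subunit, had 95.6, 93.5 and 92.7 CPM in control and 112, 110.2 and 109 CPM in MEF2C-OE libraries. It rose by 0.23 (SE 0.030, adjusted p = 2.2e-08). EIF3C had 265 to 333 reads and EIF3CL 17 to 28 per library. They are near-identical copies, so both counts are uncertain, and neither passed (adjusted p = 0.25 and 0.65).

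The 3 subunits of EIF2, which form 1 complex with the initiator tRNA, had 3 different calls in the fit without a GC and length offset. EIF2S2 (chr20:34088298-34112332, minus strand), the beta subunit, had 322, 316 and 309.8 CPM in control and 384, 372 and 385 CPM in MEF2C-OE libraries. Every MEF2C-OE library lay above the controls, and it rose by 20.4% (log2 fold change 0.27, SE 0.023, adjusted p = 5.7e-13). EIF2S3 (chrX:24054716-24077971, plus strand), the gamma subunit that binds GTP and tRNA, had 327, 321 and 331 CPM against 293, 304 and 292 CPM. It fell by 0.14 (SE 0.023, adjusted p = 4.0e-06). EIF2S1, the alpha subunit that the stress kinases phosphorylate, had 139, 141 and 146 CPM against 142, 139 and 149 CPM, with overlapping groups (0.02, SE 0.028, adjusted p = 0.70). With the GC and length offset EIF2S1 was lower (-0.12, adjusted p = 6.2e-04), as was EIF2S3 (-0.20), and EIF2S2 was higher (0.24). EIF2A, which is not a subunit of EIF2 and can bring initiator tRNA by another route, fell by 0.22 (131 ± 3.5 to 112 ± 2.55 CPM, adjusted p = 4.6e-08). EIF2D had -0.07 (adjusted p = 0.19), and EIF2S3B, a copy of EIF2S3 with 11 to 23 reads, had 0.31 (SE 0.50, adjusted p = 0.68).

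EIF2B, the factor that recharges EIF2 with GTP, was lower in 4 of its 5 subunits (80.0%, with 26.5% of other protein-coding genes). EIF2B4 fell by 0.37 (25.4 ± 1.5 to 19.7 ± 0.419 CPM, adjusted p = 3.6e-06), EIF2B2 by 0.26 (44.1 ± 1.16 to 36.9 ± 2.11 CPM, adjusted p = 1.9e-05) and EIF2B5, the catalytic subunit, by 0.18 (63.4 ± 1.58 to 55.8 ± 1.35 CPM, adjusted p = 1.2e-04). EIF2B3 fell by 0.17 (adjusted p = 0.048), a call lost when any of the 6 libraries was left out, with values of -0.19 to -0.14. EIF2B1, the regulatory alpha subunit, had 74.0 ± 0.792 and 74.0 ± 1.56 CPM (adjusted p = 1.0).

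In the EIF1 family, which guards the choice of the start codon, 2 of 5 genes fell and 1 rose. These shares were 40.0% and 20.0%, with 26.5% and 26.7% of other protein-coding genes. EIF1 had 609, 627 and 620.1 CPM in control and 651, 611 and 661 CPM in MEF2C-OE libraries, with overlapping groups (0.05, adjusted p = 0.081). Without MEF2C-OE replicate 2 it passed (0.09, adjusted p = 7.2e-04). EIF1AX rose by 0.13 (control mean 97.3 CPM, MEF2C-OE mean 106 CPM, adjusted p = 6.4e-04). EIF1AY, its near copy, whose reads the counting could split with EIF1AX, fell by 0.41 (SE 0.071, adjusted p = 5.2e-06). EIF1B fell by 0.14 (adjusted p = 0.022), a call lost when control replicate 2 (-0.12, adjusted p = 0.092), control replicate 3 (-0.14, adjusted p = 0.054) or, of the other group, replicate 1 (-0.11, adjusted p = 0.14) was left out. EIF1AD, named for a domain shared with EIF1A, had 0.09 (adjusted p = 0.12).

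The late initiation factors were mixed. EIF5, which makes EIF2 hydrolyse GTP once the start codon is found, had 310.4, 295 and 308 CPM in control and 271, 266 and 274 CPM in MEF2C-OE libraries. It fell by 0.17 (SE 0.024, adjusted p = 1.0e-07). EIF5A (chr17:7306999-7312463, plus strand), the hypusine-bearing factor that relieves stalled ribosomes, had 297, 299 and 307 CPM against 254, 267 and 254 CPM and fell by 0.22 (SE 0.024, adjusted p = 5.6e-10). Its paralogue EIF5A2 (chr3:170888415-170908693, minus strand) had 65.1, 63.2 and 64.6 CPM against 75.8, 73.6 and 74.4 CPM and rose by 0.21 (SE 0.035, adjusted p = 2.6e-06). The groups were apart in both genes, in opposite directions. With the GC and length offset EIF5A had -0.07 (adjusted p = 0.013) and EIF5A2 had 0.04 (adjusted p = 0.42), so the rise of EIF5A2 did not pass. EIF5B (0.06, adjusted p = 0.28), EIF6, which keeps the ribosomal subunits apart (-0.04, adjusted p = 0.41), and the low copy EIF5AL1 (-0.17, adjusted p = 0.45) did not pass.

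Among the 7 genes of enzymes that modify the factors, 6 were tested, 1 rose and 1 fell (16.7% each). Of other protein-coding genes 26.7% rose and 26.5% fell. The methyltransferase genes of EEF1A included EEF1AKMT2, which rose by 0.34 (12.2 ± 0.855 to 15.5 ± 0.475 CPM, adjusted p = 2.6e-04). Its counts may be partial too, since 14.9% of its exonic bases lie in the same-strand AC068896.1. EEF1AKMT1 (-0.01), EEF1AKMT3 (-0.20) and EEF1AKMT4 (-0.11) did not pass, and EEF1AKMT3 did without control replicate 2 (-0.26, adjusted p = 0.044). EEF2KMT, the lysine methyltransferase of EEF2, fell by 0.46 (7.45 ± 0.620 to 5.42 ± 0.577 CPM, SE 0.11, adjusted p = 6.6e-04). In GENCODE 29, 29.3% of its exonic bases lie opposite exons of ALG1, and without strand the reads of such a pair cannot be told apart. The readthrough gene EEF1AKMT4-ECE2 had no read.

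Summed by factor, the elongation genes had the lowest ratios of MEF2C-OE to control. The 6 EEF1 genes summed to 13954 ± 420.4 CPM in control and 10495 ± 177 CPM in MEF2C-OE libraries (log2 ratio of the means -0.41), most of it EEF1A1. The 14 EIF3 genes summed to 3009 ± 33.9 and 2656 ± 7.39 CPM (-0.18), and the 12 EIF4 genes to 4058 ± 40.8 and 3700 ± 39.8 CPM (-0.13). The groups did not overlap in any of these sums. The 5 EIF2B genes summed to 224 ± 1.72 and 201 ± 2.77 CPM (-0.15). The 6 genes of EIF2 and its partners had 978 ± 9.61 and 993 ± 3.52 CPM (0.02), just above the controls, and the EIF1 family had 816 ± 11.8 and 842 ± 27.9 CPM with overlapping groups (0.04). For comparison, the 82 cytosolic ribosomal protein genes summed to 60754 ± 1588 and 43709 ± 675 CPM (-0.48).

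**Figure D3:**
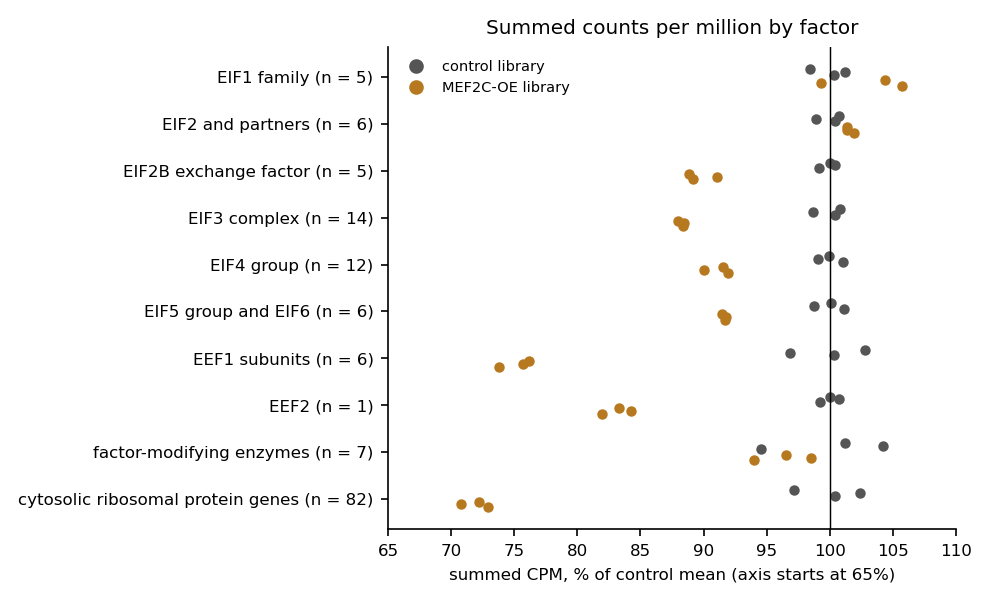
Summed CPM of the genes of each factor in every library, as a percentage of the mean of the 3 control libraries (grey control, gold MEF2C-OE; the axis starts at 65%). The MEF2C-OE points of EEF1, EEF2, EIF2B, EIF3, EIF4 and EIF5 with EIF6 lie apart from and below the controls, those of the EIF1 family and the modifying enzymes overlap them.

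The calls were also counted by annotated start. Of the 13 factor genes with the pyrimidine run, all tested, 11 fell, none rose and 2 did not pass (EIF2D and EIF2S3B), with a median log2 fold change of -0.27. Of the 33 tested factor genes with another start, 14 fell, 7 rose and 12 did not pass, with a median of -0.07. The 12 without a window had a median of -0.16. Other protein-coding genes with such a run fell in 273 of 748 cases (36.5%) and rose in 160, with a median of -0.06. With the cytosolic ribosomal protein genes left out as well, 230 of 704 (32.7%) fell and the median was -0.04. Other protein-coding genes with another start fell in 25.7% and rose in 28.0% of 9302 cases, with a median of 0.00 on the same scale. The ribosomal protein genes fell in 75 of 79 tested cases, with a median of -0.47. No test of the division between start classes was made. The genes with the run were also more abundant, with a median control level of 326 CPM against 64.3 CPM and the part of this in the counts of calls was not tested. Their median GC content was 46.1% against 47.6%.

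The 9 factor genes known as TOP mRNAs from general knowledge are EEF1A1, EEF1B2, EEF1D, EEF1G, EEF2, EIF3E, EIF3F, EIF3H and EIF4B. All 8 tested (EEF1G had too few reads) fell, between -0.42 and -0.24, with a median of -0.36. Over all tested genes 20.2% fell, and of other protein-coding genes 26.5%. The list was drawn up with earlier results of these data known, and it is not a list of all TOP mRNAs. Of the 50 other tested factor genes 23 fell and 8 rose, with a median of -0.10. Outside that list but with a run at the start, EIF4A2 and EIF3K fell the most, by 0.44 and 0.35. EIF2A (-0.22), EIF3D (-0.20), EIF2S3 (-0.14) and EIF3M (-0.10) fell less. EIF2D (-0.07) and EIF2S3B (0.31) did not pass. Among genes with another start, EIF2B4 fell by 0.37, so falls of more than 0.35 were not restricted to the run. EIF4A1 and EIF1AY, also with another start, fell by 0.83 and 0.41, but their counts may be partial or split with other genes. LARP1, the repressor that binds TOP mRNAs, had 402 ± 5.80 and 428 ± 2.94 CPM and rose by 0.09 (adjusted p = 6.3e-04). With an offset for GC content and length it was 0.02 and did not pass.

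**Figure D4:**
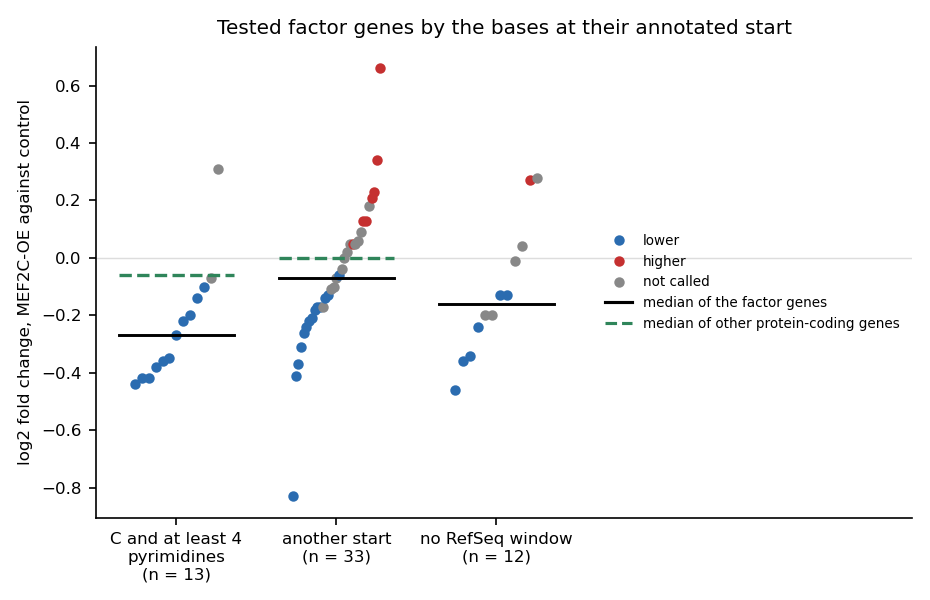
Log2 fold change of each tested factor gene by the bases at its annotated start, coloured by call, with the median of the factor genes (black) and of other protein-coding genes of the same start class (green, dashed). The 13 genes with a C and at least 4 pyrimidines have a median of -0.27 and no higher call, and the 33 with another start reach from -0.83 to 0.66 around a median of -0.07.

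Of 5 paralogue pairs with enough reads, other than the uncertain EIF4A1, 3 had ratios that differed between the groups without overlap. Among single genes, 24.4% of all tested lay wholly below the controls and 24.4% wholly above. The share over other pairs of genes was not computed, so the count alone does not set these pairs apart. EIF5A to EIF5A2, as a ratio of CPM, was 4.56, 4.73 and 4.75 in control and 3.35, 3.63 and 3.42 in MEF2C-OE libraries, before any offset for GC content, with which the 2 genes' log2 fold changes were -0.07 and 0.04. EIF1 to EIF1B was 16.9, 16.6 and 16.8 against 20.2, 17.8 and 19.4. EIF4G1 to EIF4G2 was 0.370, 0.367 and 0.372 against 0.344, 0.343 and 0.337. EIF4G1 to EIF4G3 (3.42 ± 0.0576 and 3.43 ± 0.152) and EIF4E to EIF4E2 (1.28 ± 0.0960 and 1.39 ± 0.0689) overlapped between the groups. These ratios describe unequal change within a pair and not relative amounts, since the genes differ in length, and they were not tested.

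The base composition of the transcripts moved with the changes. Over all 16946 tested genes with a known GC content, GC content and log2 fold change were correlated at a Spearman rho of -0.29, and over the 58 factor genes at -0.22. With the offset described next, the Spearman rho over the 58 was 0.20, of opposite sign and about the same size. The Pearson correlation over them was -0.25 without and 0.13 with the offset, so its sign turned as well. None of these values was tested. These are correlations across genes that share their libraries. With an offset for GC content and transcript length in the edgeR fit, 33 factor genes were lower and 8 higher, with a median of -0.14. The shares lower and higher in that fit were 20.0% and 17.6% of all tested genes, and 26.7% and 21.7% of other protein-coding genes. Of the 31 factor genes that fell without the offset 28 did with it, and of the 8 that rose 6 did. EIF2B3, EIF3G and EIF4G1 lost their lower call (-0.16, 0.06 and -0.01), and EIF1AX and EIF5A2 their higher call (-0.02 and 0.04). EIF3F moved to -0.60, EEF1A1 to -0.48 and EIF4E to -0.37, while the GC-rich EEF1D and EEF2 moved to -0.16 and -0.12 and EIF5A to -0.07. These shifts depend on the annotated transcript taken for each gene, which had 7540 bases for EIF3F and 11523 for EIF4E. EIF2S1 (-0.12), EIF3A (-0.10), EIF4G3 (-0.18), EIF5B (-0.11) and EEF2K (-0.20) became lower and EIF4H (0.08) and EIF6 (0.11) higher. EIF2S2 (0.24), EIF3J (0.15) and EEF1E1 (0.58) kept their higher call. The genes with a pyrimidine run at the start had a median of -0.28 and those with another start -0.11.

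**Figure D5:**
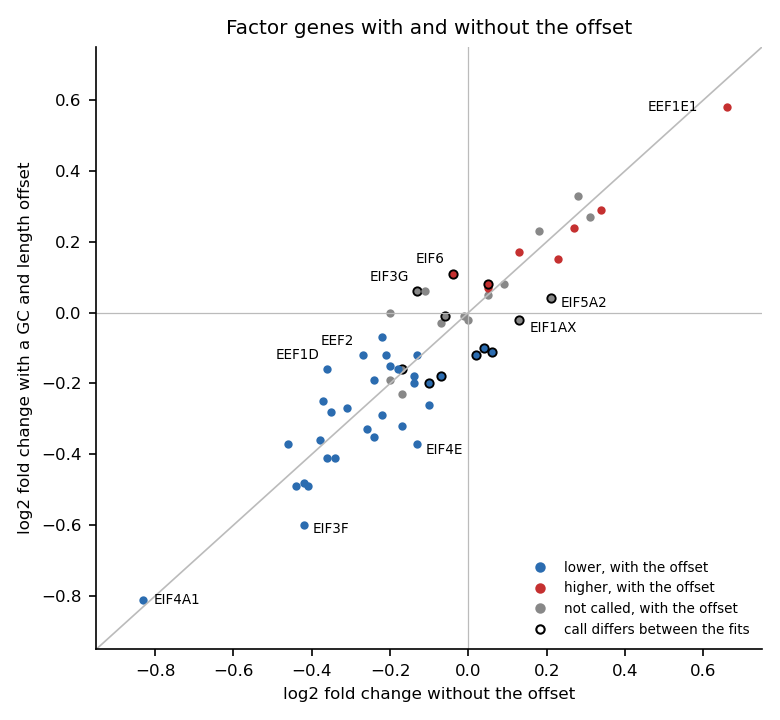
Log2 fold change of the 58 tested factor genes without (x axis) and with (y axis) an offset for GC content and transcript length, coloured by the call with the offset; black rims mark genes whose call differs between the fits. EIF3F moves down to -0.60 and EEF2 up to -0.12, and EIF5A2 and EIF1AX leave the higher calls at 0.04 and -0.02.

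Other genes of the pathway, taken from a list of 35, had 12 lower and 11 higher calls among 34 tested (35.3% and 32.4%), with a median of 0.01. Among all tested genes 20.2% and 20.8% were called, and among other protein-coding genes 26.5% and 26.7%. With the GC and length offset 10 of the 34 were lower and 4 higher, with a median of 0.00. Of the 13 repressors and kinases 6 rose (46.2%) and 2 fell, but with the offset 2 were higher and 2 lower. EIF4EBP2 and EIF4EBP1, which hold EIF4E away from the scaffold when mTOR is inactive, rose by 0.37 (339 ± 4.61 to 438 ± 6.39 CPM, adjusted p = 1.2e-17) and 0.33 (29.3 ± 2.21 to 36.8 ± 2.65 CPM, adjusted p = 5.5e-06). With the offset these had 0.23 and 0.54, both still higher. EIF2AK2, the double-stranded RNA kinase of EIF2, rose by 0.28 and RPS6KB1, the S6 kinase, by 0.24, and neither passed with the offset (0.05 and 0.08). EIF2AK3 and EIF2AK4 rose by 0.11 and 0.13 and likewise did not pass with it (0.02 and 0.05). PDCD4, which blocks EIF4A, fell by 0.23 and MKNK2, a kinase of EIF4E, by 0.22.

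The poly(A)-binding protein gene PABPC1, which closes the mRNA loop with EIF4G, fell by 0.08 (1927 ± 17.9 to 1826 ± 33.6 CPM, adjusted p = 9.8e-04). PABPC4 fell by 0.13 and PAIP2, a PABP inhibitor, by 0.28. Of 6 termination and recycling genes ETF1 rose by 0.09 and HBS1L by 0.23, and neither passed with the offset (0.00 and 0.03). The reinitiation partners DENR and MCTS1, which act as a pair, went apart, with 0.20 for DENR and -0.19 for MCTS1 (adjusted p = 5.1e-07 and 1.0e-04). Of the 6 diphthamide enzymes, which make the modified histidine of EEF2, DPH1, DPH2, DPH5 and DPH7 fell by 0.41, 0.41, 0.19 and 0.22 and DPH3 rose by 0.33. With the offset DPH7 had -0.06 and did not pass, which left 3 lower and 1 higher. DHPS and DOHH, which make the hypusine of EIF5A, fell by 0.34 and 0.20 (adjusted p = 0.041 and 0.047), and neither passed with the offset (-0.19 and 0.00).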

How the data were processed

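RNA from the 6 KARPAS-45 libraries was sequenced as TruSeq libraries of TRIzol total RNA, per the labels' protocols. Trim Galore, STAR, HTSeq and hg38 are named in the submitters' processing notes. Their versions, the annotation and the strand setting were not given in the sources used here. The deposited values are whole-number read counts per gene, and 70.9% to 71.3% of the reads in each file were assigned to a gene. The 5 HTSeq summary lines were left out. Symbols matched 61481 identifiers, and coordinates, lengths and GC content came from GENCODE 29 (available for 88.8% of the tested genes). Length and GC content were those of 1 transcript per gene, the longest, with APPRIS principal transcripts taken first. The transcripts used in these cells were not measured. Counts were filtered with filterByExpr, scaled by TMM and tested by the quasi-likelihood method of edgeR 4.0.16 in R 4.3.3 over 19086 genes, with Benjamini-Hochberg adjustment (threshold 0.05). CPM used the TMM-scaled library sizes. Data were simulated for this comparison (19086 genes), with all changed genes drawn from those with a mean of at least 5 CPM. The fit called 22 of 50 genes changed 1.1-fold, 42 of 50 changed 1.25-fold and 50 of 50 changed 1.5-fold. It also called 15 of 18886 unchanged genes. The share of changed genes was far smaller there than the share called in these data, and recovery below that level was not simulated. The members and lists were chosen with earlier results of these data known. Named genes were fixed members of each factor plus up to 4 called members per factor with the largest change and a mean of at least 1 CPM; other members are named where a small count needs it. The split by start site was added after the data were seen. DESeq2 1.42.0, limma 3.58.1, glmTreat, other scalings and filters, a replicate block, a GC and length offset (splines with 5 degrees of freedom) and leaving out each library were alternatives. Reads of near-identical copies, of overlapping genes and of antisense pairs cannot be told apart where the counting could split or drop them. The ambiguous share of reads was 3.42% to 3.46% in control and 3.31% to 3.33% in MEF2C-OE libraries. The share not aligned uniquely was 4.23% to 4.68% in control and 4.03% to 4.05% in MEF2C-OE libraries. The part of these differences in the results was not tested.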

Additional observations from a re-analysis of the deposited data

How the results depend on the processing

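Under 16 alternative settings the count of factor genes called lower was 28 to 33, except 21 with glmTreat against 1.1-fold, and the count called higher was 7 to 11, except 5 with glmTreat. Of the 39 called genes, 25 (21 lower, 4 higher) were called in the same direction in all 16. The median over tested factor genes was -0.12 with library totals only, -0.15 with upper-quartile scaling, -0.14 with a filter of 1 CPM and -0.14 to -0.12 when a library was left out. The median of genes with a pyrimidine run at the start was -0.25 with library totals only, -0.31 with the 1 CPM filter and -0.27 to -0.25 without 1 library. That of genes with another start was -0.05 with library totals only, -0.08 with upper-quartile scaling, -0.11 with the GC and length offset and -0.08 to -0.06 without 1 library. No scaling moved the median of all genes by 0.1 or more. The same-numbered libraries deviated together with correlations of 0.00611, 0.0123 and -0.00309 over 19086 genes, so the numbers do not pair them. With a replicate block 30 factor genes were lower and 8 higher. EIF2B3 lost its call there (adjusted p = 0.054). Signs turned with the GC and length offset for EIF3A (-0.10), EIF3G (0.06), EIF2S1 (-0.12), EIF5B (-0.11), EIF1AX (-0.02), EIF6 (0.11) and EEF1AKMT4 (0.06), with the cause not tested. EIF2B1, at -0.00, had 0.00 with RLE factors, 0.00 with DESeq2, 0.02 with library totals only and 0.01 to 0.02 without control replicate 3 or MEF2C-OE replicate 3. When a library was left out, other uncalled genes changed sign: EEF1AKMT1 ranged from -0.09 to 0.07 (0.01 with library totals only), EEF1A2 from -0.79 to 0.38, EEF1AKMT4 from -0.35 to 0.13, EIF2S3B from -0.03 to 0.50 and EIF2S1 from -0.01 to 0.04. In EEF1A2, EIF2S3B, EIF3CL and EEF1AKMT4 (at most 28 reads per library) the standard error was larger than the change, and none was called. Recovery of changes at that depth was not simulated.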

Other observations

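EEF1A1 has many processed pseudogenes. The 49 named after it that were counted held 3574 to 4236 reads per control library and 3046 to 3902 per MEF2C-OE library in all. The 155 pseudogenes of all the factor families held 4456 to 5300 and 3918 to 4831 reads, respectively.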
